A study of Mus musculus with 8 samples.

Results

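Cholesterol synthesis, transfer and efflux were followed through 29 genes, chosen by name out of the 54146 genes of each library, in cultured mouse astrocytes with reduced GSTM1. GSTM1 is a glutathione S-transferase, an enzyme that conjugates glutathione to reactive compounds. The list holds 18 genes of the synthesis route from Acat2 to Dhcr7, 5 genes of the SREBP control system, the sterol carrier gene Stard4, and 5 genes of the LXR and efflux system, and every listed gene was found in each library and passed the filter on low counts. Primary glia came from the cortices of C57BL/6 pups of postnatal days 2 to 5 and were infected with lentivirus carrying either a Gstm1 shRNA (GSTM1 KD) or a non-silencing shRNA (control KD), so that all 4 groups were infected and selected with puromycin. Astrocytes were then enriched from the mixed glia by removing CD11b+ cells. Each genotype was sequenced unstimulated, here called the basal level, and after 6 h with 50 ng/ml TNF-α, which made 8 libraries, 2 in each of the groups. The labels do not say how many Gstm1 shRNA constructs were used, and the cells are cultures of neonatal cortex rather than adult tissue. Libraries held between 17349682 and 34434615 counts. The targeted gene, Gstm1, gave 8153 and 9644 counts with the non-silencing shRNA and 676 and 626 with the Gstm1 shRNA in unstimulated cells, and 4851 and 6492 against 527 and 405 with TNF-α.

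Cells make cholesterol from acetyl-CoA. The mevalonate arm builds isoprenoid units, the squalene and sterol arm joins and cyclises them and then reshapes the ring system into cholesterol. SREBP transcription factors switch these genes on when membrane sterol is low, escorted by SCAP and held back by the INSIG proteins. LXR receptors answer to oxidised sterols and switch on ABC transporters and apolipoprotein E, which carry cholesterol out of the cell. In the brain, astrocytes are known as a main source of cholesterol and of apolipoprotein E particles for neurons.

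Promoter windows of 300 bases, 250 before and 50 after the transcription start (RefSeq, GRCm38.p6), were at hand for 24 of the 29 genes, in 35 windows. None was at hand for Fdps, Fdft1, Sqle, Stard4 and Abcg1, so these were not searched. Windows are shown for Hmgcs1, which held the only match to the SREBP element in the 35 windows, and for Acat2, Idi1 and Dhcr7, the genes that passed the threshold at the basal level. Each is written on the strand of its gene, and capitals mark exact matches on either strand to the SREBP element core (TCACNCCAC), the NF-Y box (CCAAT, or ATTGG on the other strand), the GC box (GGGCGG, or CCGCCC) and the E-box (CACGTG).
Hmgcs1: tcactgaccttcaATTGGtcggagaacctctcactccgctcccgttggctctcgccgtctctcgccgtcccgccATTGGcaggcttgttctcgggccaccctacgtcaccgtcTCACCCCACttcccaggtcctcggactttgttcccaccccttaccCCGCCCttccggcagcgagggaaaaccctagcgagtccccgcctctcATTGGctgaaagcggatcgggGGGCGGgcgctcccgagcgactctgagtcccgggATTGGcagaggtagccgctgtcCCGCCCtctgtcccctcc
Acat2: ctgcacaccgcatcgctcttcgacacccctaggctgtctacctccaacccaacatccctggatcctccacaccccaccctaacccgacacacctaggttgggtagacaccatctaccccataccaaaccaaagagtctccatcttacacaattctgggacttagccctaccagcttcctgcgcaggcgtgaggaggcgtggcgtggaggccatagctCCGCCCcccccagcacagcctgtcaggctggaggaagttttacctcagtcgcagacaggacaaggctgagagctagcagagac
Idi1: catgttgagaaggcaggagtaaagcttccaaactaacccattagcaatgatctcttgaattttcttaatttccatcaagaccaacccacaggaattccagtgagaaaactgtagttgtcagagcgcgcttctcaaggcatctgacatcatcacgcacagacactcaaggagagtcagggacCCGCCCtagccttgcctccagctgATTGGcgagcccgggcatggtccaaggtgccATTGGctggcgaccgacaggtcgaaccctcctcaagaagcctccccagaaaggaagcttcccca
Dhcr7: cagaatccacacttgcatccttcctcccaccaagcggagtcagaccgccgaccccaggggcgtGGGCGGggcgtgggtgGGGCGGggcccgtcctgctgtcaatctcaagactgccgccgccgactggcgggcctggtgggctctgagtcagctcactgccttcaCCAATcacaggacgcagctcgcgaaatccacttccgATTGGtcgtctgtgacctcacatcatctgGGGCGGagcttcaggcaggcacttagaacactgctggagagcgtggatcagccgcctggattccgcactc
The windows lie at chr13:119690101-119690400 (plus strand), chr17:12960676-12960975 (minus strand), chr13:8885356-8885655 (plus strand) and chr7:143829964-143830263 (plus strand), the last being the window of Dhcr7, out of 3, that holds NF-Y boxes. The SREBP element core of Hmgcs1 starts 137 bases before the transcription start. It was matched in 1 of the 35 windows, against 1.24% of all 32851 promoter windows of the same length. An NF-Y box was found in 19 of the 35 windows (54.3%) against 37.4% of all windows, a GC box in 24 (68.6%) against 35.7%, and an E-box in 7 (20%) against 7.15%. Windows of the same gene can overlap, as those of Scap do, and can share a match. Counted by gene, an NF-Y box was found for 18 of the 24 genes against 41.1% of all genes with windows. A GC box was found for 20 against 38.2%, and an E-box for 6 against 8.09%. No window matched the LXR element as a direct repeat of AGGTCA with any 4 bases between, which 0.0152% of all windows matched. A match describes letters, and its absence says only that these letters are not in the window.

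Cholesterol synthesis genes were higher in GSTM1 KD than in control KD astrocytes when both states were averaged. In this mean all 7 genes of the mevalonate arm and 7 of the 11 genes of the squalene and sterol arm were higher, by between 1.17-fold (Ebp) and 2.18-fold (Idi1). Stard4, Srebf1 and Nr1h3 were higher as well, and Nr1h2 was lower. The test was the quasi-likelihood F-test of edgeR, with p adjusted over all genes tested (Benjamini-Hochberg) and called at 0.05. In this mean 17 of the 29 genes were higher, against 20.1% of all genes tested, and 1 was lower, against 19.6%. The median log2 fold change was 0.40 over the 29 genes and 0.0082 over all genes tested. Libraries of the 2 states with the same number may not be independent of each other, since the deviations of the control KD replicates from their group mean correlated at r = 0.575 between the states (15332 genes, which are not replicates). When the libraries with the same replicate number were summed over both states, leaving 2 against 2, the median was 0.41, 3 genes remained higher (Acat2, Idi1 and Dhcr7), against 5.72% of all genes, and 0 were lower, against 6.76%, with 15 at an unadjusted p below 0.05, against 34.3% of all genes in either direction. Both replicates of each group are biological replicates according to a figure caption of the study.

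Within each state, 2 libraries stood against 2 in a fit with no replicate block, and fewer genes passed. At the basal level 3 of the 29 genes were higher (Acat2, Idi1 and Dhcr7), against 4.6% of all genes tested, and 0 were lower, against 5.62%, while 14 were higher (15.3% of all genes) and 0 lower (16.3%) at an unadjusted p below 0.05, and DESeq2 called 10 higher (8.14% of all genes) and 0 lower (10.1%). After TNF-α 3 were higher (Acat2, Mvk and Dhcr7), against 7.26% of all genes, and 0 were lower, against 8.92%, while 13 were higher (17.2% of all genes) and 2 lower (19%) at an unadjusted p below 0.05, and DESeq2 called 7 higher (9.34% of all genes) and 0 lower (11.1%). Over the 29 genes the median log2 fold change was 0.48 in unstimulated cells (-0.0020 over all genes) and 0.42 with TNF-α (-0.011 over all genes). The sign was positive for 25 and 23 of the 29 genes. In each state the 2 GSTM1 KD libraries lay above both control KD libraries for 18 genes, against 32.3% of all genes unstimulated and 34.6% with TNF-α. These 18 genes were the same in both states. Both GSTM1 KD libraries lay below both control KD libraries for Sc5d, Abcg1 and Nr1h2 in each state, 3 genes against 31.2% and 32% of all genes. More genes passed in an alternative edgeR fit with the replicate number as a block. It called 19 higher (15.7% of all genes) and 0 lower (15.9%) at the basal level. After TNF-α it called 14 higher (14.1%) and 1 lower (15.3%). What a replicate number marks is not stated in the labels.

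**Figure D1:**
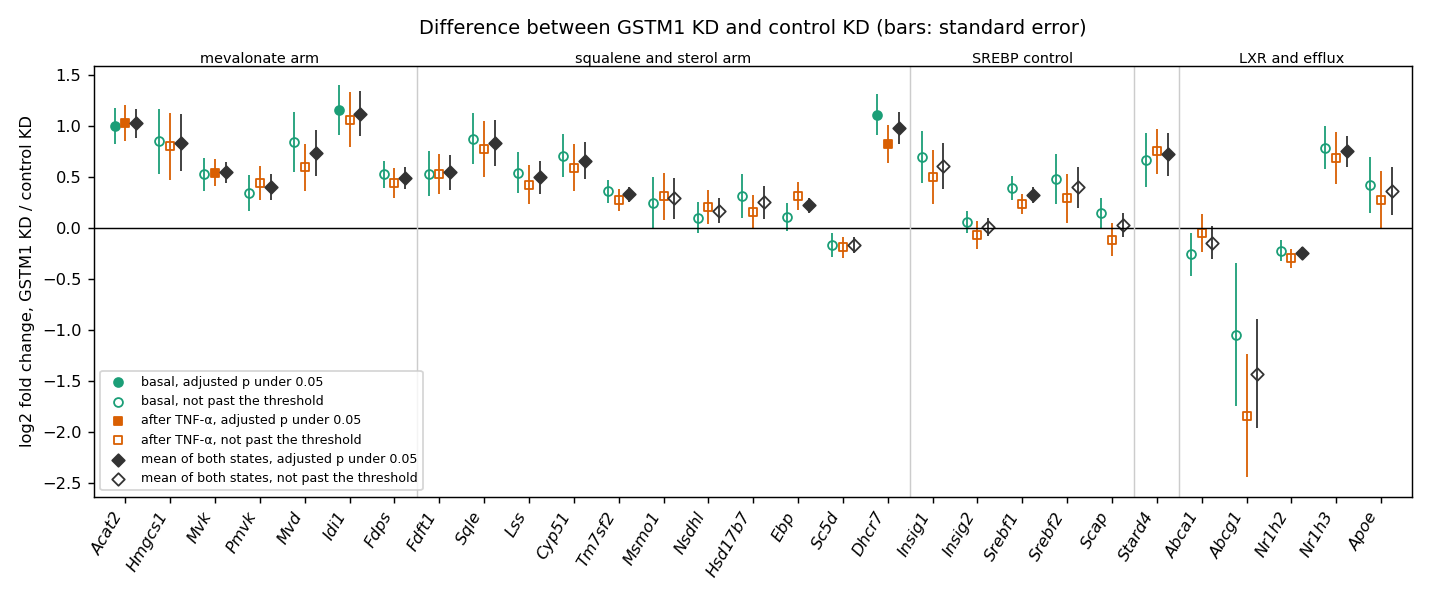
Log2 ratio of GSTM1 KD to control KD for each of the 29 genes in pathway order, at the basal level (circles), after TNF-α (squares) and as the mean of both states (diamonds), with bars of 1 standard error; filled symbols passed an adjusted p of 0.05. The 7 genes of the mevalonate arm all lie above 0 in each comparison, and Sc5d, Abca1, Abcg1 and Nr1h2 lie below 0 in each.

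The counts of called genes depended on single libraries. In the mean of both states 17 genes were higher (20.1% of all genes). The count fell when control KD replicate 1 or either GSTM1 KD replicate was left out of a state. It did not change when control KD replicate 2 was left out of a state. With both control KD libraries numbered 1 left out, fewer genes were higher, and with both numbered 2 left out, more were. With both GSTM1 KD libraries of a number left out, 3 were higher without number 1 (6.57% of all genes) and 0 without number 2 (2.71%). At the basal level the count of 3 (4.6% of all genes) became 0 without GSTM1 KD replicate 1 (0.00643%) or replicate 2 (0.00644%) and 22 without control KD replicate 2 (17.2%). After TNF-α the count of 3 (7.26% of all genes) became 0 without GSTM1 KD replicate 1 (0%) or replicate 2 (0.413%), 5 once the first control KD library was dropped (7.6%) and 20 once the other was (16.7%). In each of these fits where the count of the 29 changed, the share of all genes called moved in the same direction. The median log2 fold change of the 29 genes stayed above 0 in all of these fits, between 0.23 and 0.64. Acat2 and Dhcr7 passed the threshold in 20 of the 21 alternatives of the mean comparison, Idi1 and Mvk in 19, and Ebp in 2.

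In the mevalonate arm, Acat2, the cytosolic thiolase that opens the route, and Idi1, the isomerase of the isoprenoid unit, had the largest differences of the genes that were higher. Acat2 was measured at 28.97 and 37.8 CPM (counts scaled to library size) in unstimulated control KD, 59.8 and 73.7 CPM in unstimulated GSTM1 KD, and at 27.5 and 36.9 against 59.7 and 73.6 CPM after TNF-α. In each such pair replicate 1 is given first, and control KD before GSTM1 KD. Both GSTM1 KD libraries were above both control KD libraries in each state. The log2 fold change of Acat2 was 1.00 ± 0.18 (SE; edgeR adjusted p = 0.0303) at the basal level and 1.03 ± 0.18 (adjusted p = 0.0243) after TNF-α. Idi1 was at 70.1 and 111 against 178 and 225 CPM unstimulated and 73.9 and 128 against 188 and 241 CPM after TNF-α, again without overlap. Its log2 fold change was 1.16 ± 0.24 (adjusted p = 0.0422) at the basal level, 1.06 ± 0.27 (adjusted p = 0.0530, not past the threshold) after TNF-α and 1.12 ± 0.22 (adjusted p = 0.00765) in the mean.

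Hmgcs1, the HMG-CoA synthase and the most abundant transcript of the synthesis route, was at 309 and 582 CPM in unstimulated control KD, 688 and 921 CPM in unstimulated GSTM1 KD, and at 309 and 619 against 713 and 929 CPM after TNF-α. The control KD libraries differed from each other by 1.88-fold at the basal level, more than the 1.81-fold between the group means. Its mean log2 fold change was 0.84 ± 0.28, just past the threshold (adjusted p = 0.0489), and it passed in 10 of 21 alternatives. Mvk, mevalonate kinase, was at 21.9 and 24.2 against 29.3 and 37.1 CPM unstimulated and 19.2 and 21.95 against 29.2 and 31.6 CPM after TNF-α. Its replicates were closer together, and the log2 fold change passed after TNF-α (0.54 ± 0.13, adjusted p = 0.0471) and in the mean (0.55 ± 0.10, adjusted p = 0.00650).

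Pmvk, Mvd and Fdps, which finish the mevalonate arm as phosphomevalonate kinase, decarboxylase and farnesyl diphosphate synthase, passed the test in the mean of both states and in neither state alone. Pmvk was at 18.9 and 25.2 against 26.6 and 29.4 CPM unstimulated and 16.3 and 20.6 against 23.5 and 27.2 CPM after TNF-α, and over all 8 libraries its groups overlapped. Mvd was at 20.04 and 33.2 against 38.6 and 56.8 CPM and, after TNF-α, 24.02 and 37.2 against 41.7 and 52.3 CPM. Fdps was at 76.2 and 88.8 against 110.1 and 127 CPM and, after TNF-α, 76.9 and 99.5 against 115 and 128 CPM. In the mean they differed by 0.40 ± 0.13, 0.73 ± 0.22 and 0.49 ± 0.11 on the log2 scale, at adjusted p = 0.0419, 0.0364 and 0.0108.

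In the squalene and sterol arm the clearest gene was its last, Dhcr7, the reductase of the final step to cholesterol. Dhcr7 was at 25.9 and 34.7 CPM in unstimulated control KD, 56.2 and 74.5 CPM in unstimulated GSTM1 KD, and at 28.2 and 37.9 against 52.9 and 66.2 CPM after TNF-α. Its groups did not overlap, and its log2 fold change was 1.11 ± 0.20 (edgeR adjusted p = 0.0325) at the basal level and 0.82 ± 0.18 (adjusted p = 0.0398) after TNF-α. Fdft1, squalene synthase, was at 78.2 and 118 against 128 and 156 CPM unstimulated and 78.5 and 119 against 143 and 148 CPM after TNF-α. Sqle, squalene epoxidase, was at 107 and 174 against 229 and 286 CPM and, after TNF-α, 87.3 and 156 against 189 and 234 CPM. Lss, lanosterol synthase, was at 33.5 and 43.3 against 47.5 and 64.6 CPM and, after TNF-α, 34.4 and 44.7 against 46.2 and 61.6 CPM. These 3 genes passed in the mean of both states and in neither state alone, at 0.55 ± 0.17, 0.84 ± 0.23 and 0.50 ± 0.16 (adjusted p = 0.0426, 0.0244 and 0.0437).

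Cyp51, the lanosterol demethylase, was at 105 and 149 against 182 and 234 CPM unstimulated and 109.7 and 169 against 187 and 239.7 CPM after TNF-α. Tm7sf2, a sterol reductase of the next step, was at 52.3 and 60.4 against 71.98 and 72.7 CPM and, after TNF-α, 52.2 and 60.9 against 69.9 and 68.9 CPM. Ebp, the sterol isomerase, was at 18.1 and 17.4 against 19.2 and 19.2 CPM and, after TNF-α, 15.3 and 14.7 against 18.7 and 19.3 CPM. Each of these 3 was higher in the mean, by 0.66 ± 0.18, 0.33 ± 0.076 and 0.22 ± 0.074 (adjusted p = 0.0269, 0.0134 and 0.0462). They passed in neither state alone. The genes of the demethylation steps that follow Cyp51, Msmo1, Nsdhl and Hsd17b7, did not pass the test, with mean log2 fold changes of 0.29 ± 0.20, 0.17 ± 0.12 and 0.25 ± 0.16 (adjusted p = 0.287, 0.298 and 0.246), and their groups overlapped in both states. Sc5d, a desaturase, was the only gene of the route below 0 in the mean, at -0.17 ± 0.078 (adjusted p = 0.130). That the log2 fold changes of called and uncalled genes of this arm differ from each other was not tested.

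Of the SREBP control system, Srebf1 was higher in the mean of both states and the other 4 genes did not pass. Srebf1, which encodes the SREBP best known for fatty acid genes, was at 91.1 and 107 CPM in unstimulated control KD, 128 and 132 CPM in unstimulated GSTM1 KD, and at 85.1 and 95.6 against 104 and 112 CPM after TNF-α. It was higher by 0.33 ± 0.076 in the mean (adjusted p = 0.0143), although the groups overlapped once the states were pooled. It did not pass at the basal level alone (edgeR adjusted p = 0.0920), after TNF-α alone (0.162) or when libraries were summed by number. Srebf2, which encodes the SREBP best known for the synthesis genes above, was at 165 and 262 against 261 and 334 CPM and, after TNF-α, 195 and 318 against 289.6 and 348 CPM, with overlapping groups and a mean log2 fold change of 0.40 ± 0.21 (adjusted p = 0.162). Insig1, itself a target of SREBP that feeds back on it, was at 84.9 and 138 against 157 and 204 CPM and, after TNF-α, 75.03 and 134 against 139 and 160.3 CPM. Its GSTM1 KD libraries were all above its control KD libraries, with a mean log2 fold change of 0.61 ± 0.22 that missed the threshold (adjusted p = 0.0650). Insig2 and Scap were close to 0, at 0.011 ± 0.087 and 0.030 ± 0.12.

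Stard4, which carries cholesterol between membranes inside the cell and is a known SREBP target, was at 29.1 and 46.7 CPM in unstimulated control KD, 49.8 and 70.3 CPM in unstimulated GSTM1 KD, and at 30.2 and 47.1 against 60.7 and 71.2 CPM after TNF-α. The groups did not overlap, and the mean log2 fold change was 0.72 ± 0.21 (adjusted p = 0.0308). Stard4 did not pass at the basal level alone (edgeR adjusted p = 0.158), after TNF-α alone (0.0705) or when libraries were summed by number.

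In the LXR and efflux group, the receptor genes moved in opposite directions and no transporter passed the test. Nr1h3, which encodes LXRα, was at 5.45 and 5.35 CPM in unstimulated control KD, 8.32 and 10.4 CPM in unstimulated GSTM1 KD, and at 5.77 and 3.97 against 8.26 and 7.81 CPM after TNF-α, and was higher by 0.75 ± 0.16 in the mean (adjusted p = 0.00944). It passed in 18 of the 21 alternatives, but not at the basal level alone (edgeR adjusted p = 0.0694) or after TNF-α alone (0.121). Nr1h2, which encodes LXRβ, was at 50.6 and 53.2 against 43.1 and 45.96 CPM and, after TNF-α, 61.2 and 63.8 against 50.5 and 52.95 CPM. It was lower, with a mean log2 fold change of -0.25 ± 0.059 (adjusted p = 0.0155), and passed in 17 of the 21 alternatives. It did not pass without GSTM1 KD basal replicate 1 (adjusted p = 0.0519), without both GSTM1 KD libraries numbered 1 (0.174) or numbered 2 (0.108), when libraries were summed by number (0.141), or in either state alone. Abca1, the transporter that loads cholesterol onto apolipoproteins, was at 492 and 725 against 468 and 549 CPM and, after TNF-α, 487 and 660.3 against 502 and 622 CPM, with overlapping groups and a mean log2 fold change of -0.14 ± 0.16 (adjusted p = 0.506). Abcg1, the partner transporter, was scarce, with 44 and 26 counts in unstimulated control KD, 4 and 19 in unstimulated GSTM1 KD, and 44 and 34 against 5 and 16 with TNF-α. Its mean log2 fold change was -1.43 ± 0.53 (adjusted p = 0.0697). Apoe was at 856 and 1415 against 1300.4 and 1738 CPM and, after TNF-α, 848 and 1529 against 1322 and 1604 CPM, with overlapping groups and a mean log2 fold change of 0.36 ± 0.24 (adjusted p = 0.258). In these bulk libraries, a change in the number of cells of a type and a change in RNA per cell cannot be told apart.

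Per length of transcript, the 29 genes spanned a wide range. Apoe was the most abundant, with a mean of 3099 TPM (transcript level scaled for length and library size) over the 8 libraries and a range of 1945 to 4214 TPM. Hmgcs1 came next with a mean of 370.1 TPM, then Msmo1 with 215, Fdps with 176 and Sqle with 126. Between neighbours in this order the ranges over libraries overlapped, except that Apoe at the top and Abcg1 at the bottom stood clear. At the low end Stard4 had a mean of 19.3 TPM, Nr1h3 of 8.88 and Abcg1 of 0.541 TPM.

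**Figure D2:**
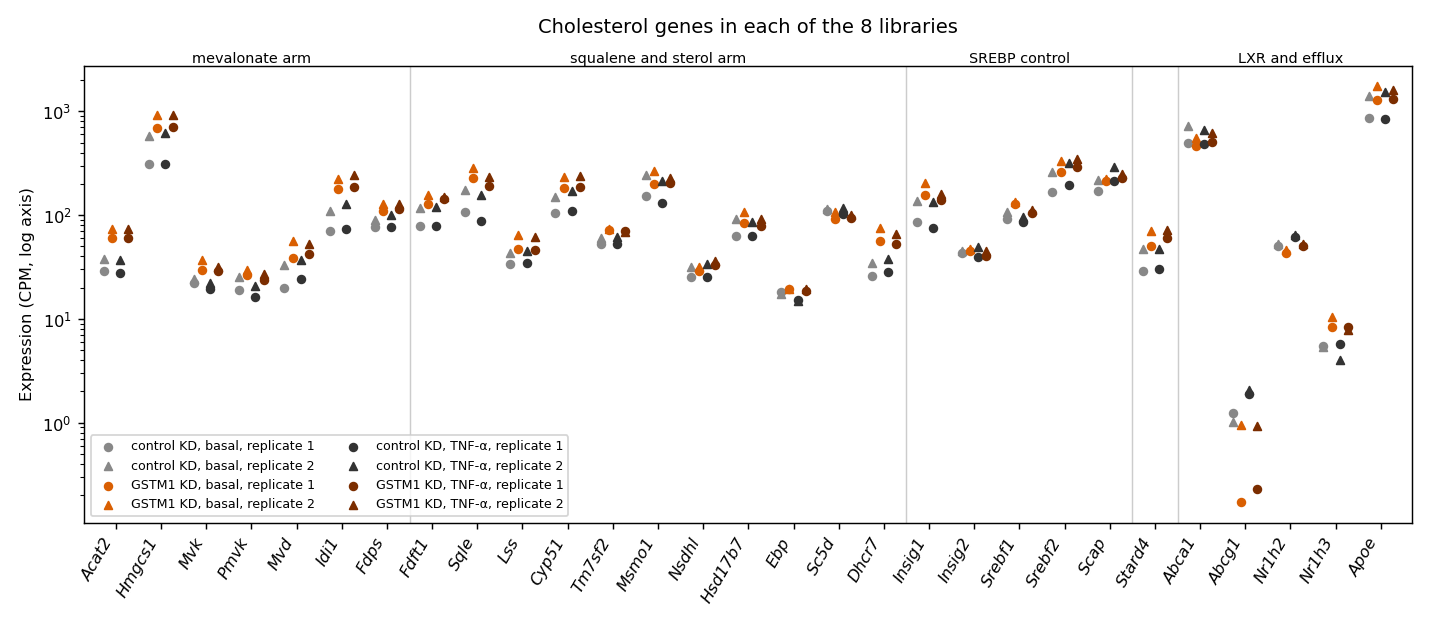
Expression of the 29 genes in CPM on a log axis, in each of the 8 libraries, with circles for replicate 1 and triangles for replicate 2, greys for control KD and browns for GSTM1 KD. Orange and brown points of Acat2, Idi1 and Dhcr7 sit above all grey and black points, while those of Apoe, Srebf2 and Msmo1 overlap with them.

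Replicates differed from each other in the same genes. Replicate 2 was above replicate 1 in all 4 groups for 25 of the 29 genes, against 20.3% of all genes tested, the exceptions being Tm7sf2, Ebp, Abcg1 and Nr1h3. The median ratio of replicate 2 to replicate 1 over the 29 genes was 1.34 among unstimulated control KD libraries and 1.25 among the GSTM1 KD ones, beside a median ratio of 1.40 between GSTM1 KD and control KD means. For 15 genes the order control KD 1, control KD 2, GSTM1 KD 1, GSTM1 KD 2 held in both states, against 9.51% of all genes. The mean log2 CPM of the 18 synthesis genes, relative to the mean of unstimulated control KD, was -0.21 and 0.21 for control KD against 0.42 and 0.71 for GSTM1 KD. After TNF-α it was -0.26 and 0.21 against 0.41 and 0.63.

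Of the 7 astrocyte markers listed, 4 (Gfap, Aldh1l1, Slc1a2 and Gja1) followed the same order in both states and 3 (Aqp4, Slc1a3 and Sox9) did not. Gfap, the astrocyte filament gene, was at 995 and 3078 CPM in unstimulated control KD, 3119 and 5627 CPM in unstimulated GSTM1 KD, and at 920.2 and 2893 against 2983 and 5209 CPM after TNF-α. Aldh1l1, an astrocyte folate enzyme, was at 89.95 and 256 against 319.7 and 397 CPM and, after TNF-α, 73.7 and 194 against 297 and 336 CPM. The mean log2 fold change was 1.10 ± 0.48 for Gfap and 1.15 ± 0.39 for Aldh1l1, and it was smaller for the glutamate transporter gene Slc1a2, at 0.59 ± 0.26, and the gap junction gene Gja1, at 0.23 ± 0.083. The water channel gene Aqp4, at -0.036 ± 0.32, and the glutamate transporter gene Slc1a3, at -0.0019 ± 0.21, were near 0. Sox9, a glial transcription factor, had a value below 0, at -0.44 ± 0.16, and was at 266 and 410.0 CPM in unstimulated control KD, 236 and 243 CPM in unstimulated GSTM1 KD, and at 168 and 232 against 144 and 161 CPM after TNF-α, with both GSTM1 KD libraries below both control KD libraries in each state. None of the 7 markers passed the test in the mean, with adjusted p from 0.0518 (Aldh1l1) to 0.996 (Slc1a3). The summed level of the 7 in unstimulated cells was between 2887 and 6618 CPM for control KD and between 5795 and 8763 CPM for GSTM1 KD. Without Gfap the sum of the other 6 was 1892 and 3540 CPM against 2676 and 3137 CPM, and after TNF-α 2087 and 3906 CPM against 3042 and 3424 CPM, so that the GSTM1 KD libraries lay between the control KD libraries in both states. Their part in the difference of the cholesterol genes was not tested.

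**Figure D3:**
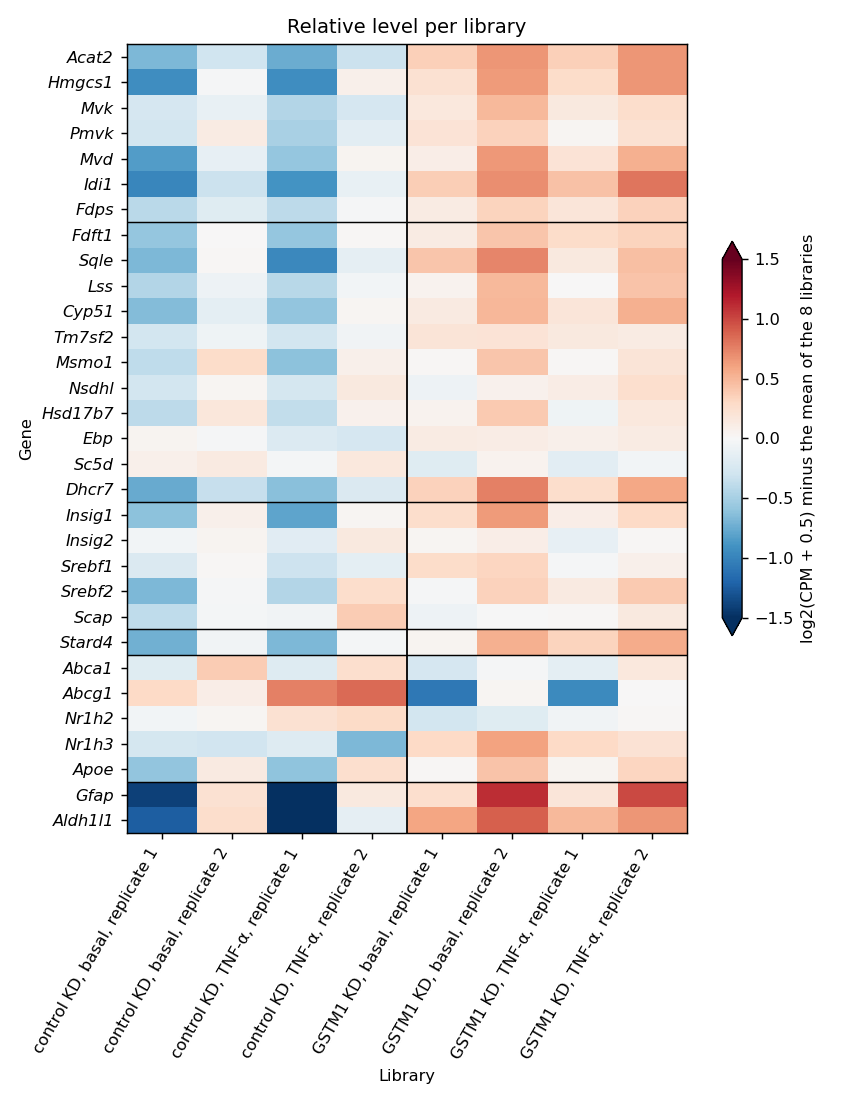
Level of each of the 29 genes and of Gfap and Aldh1l1 in each library, as log2(CPM + 0.5) minus the mean of the 8 libraries, red for above and blue for below that mean, with the control KD libraries left of the line. Control KD replicate 1 is the bluest column in both states for the synthesis genes, and GSTM1 KD replicate 2 is the reddest.

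No cholesterol gene passed the test for a response to TNF-α, in either genotype. In control KD cells 0 of the 29 genes passed the test with edgeR, against 2.63% of all genes tested, with 2 at an unadjusted p below 0.05 (12.5% of all genes), and DESeq2 called 0, against 4.58%. In GSTM1 KD cells 0 passed, against 2.65% of all genes, with 2 at an unadjusted p below 0.05 (10.9% of all genes) and 0 with DESeq2, against 3.77%. The log2 fold changes ran from -0.26 to 0.79 in control KD, with a median of 0.0098, and from -0.28 to 0.22 in GSTM1 KD, with a median of -0.022. Hmgcs1 had log2 fold changes of 0.058 ± 0.39 for control KD and 0.029 ± 0.39 for GSTM1 KD, and Acat2 of -0.054 ± 0.20 and -0.0028 ± 0.20. Nr1h2 had the lowest adjusted p in both, with log2 fold changes of 0.27 ± 0.083 and 0.22 ± 0.084 (edgeR adjusted p = 0.199 in control KD and 0.385 in GSTM1 KD).

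The difference between both TNF-α responses was tested as an interaction. None of the 29 genes passed with edgeR, 0 had an unadjusted p below 0.05 and DESeq2 called 0. Over all genes tested, edgeR called 0% and DESeq2 0.157%, and 295 genes (1.92%) had an unadjusted p below 0.05 with edgeR. The interaction ran from -0.77 (Abcg1) to 0.23 (Abca1) on the log2 scale with a median of -0.071. Among the synthesis genes the widest was Dhcr7 at -0.26 ± 0.31.

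**Figure D4:**
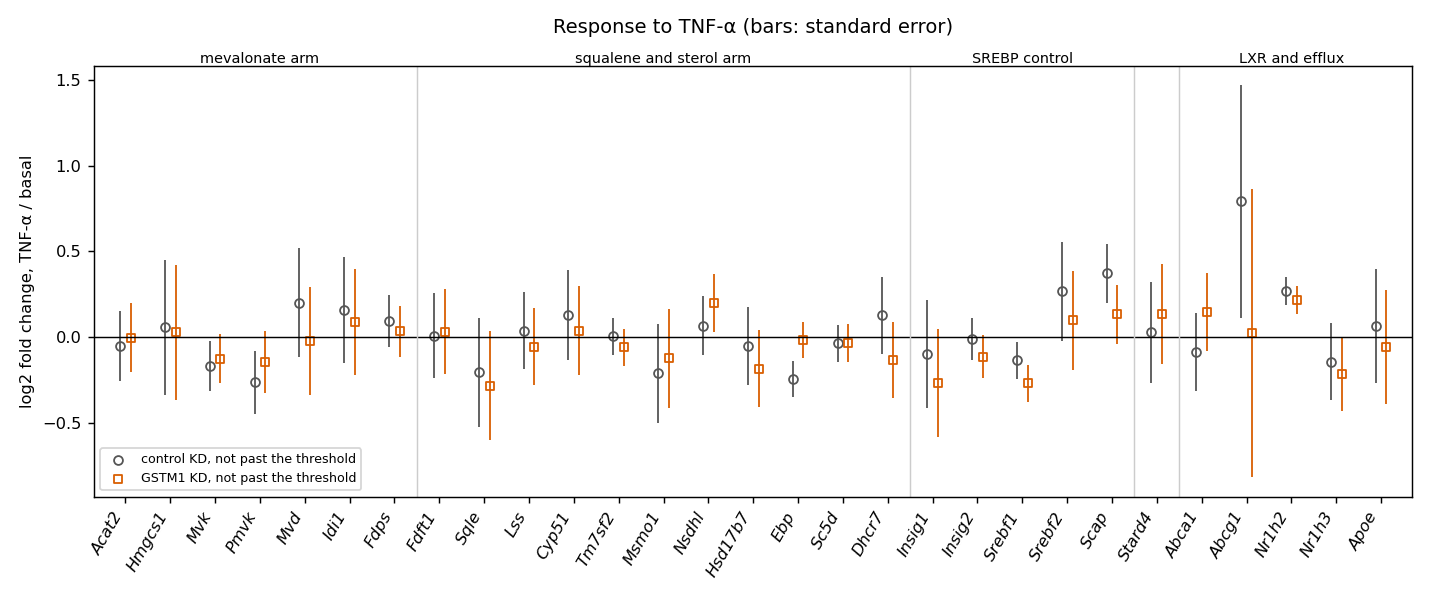
Log2 fold change between TNF-α and the basal level for each of the 29 genes in control KD (circles) and GSTM1 KD (squares), with bars of 1 standard error. No gene passed the threshold in either genotype, and all but Abcg1 in control KD lie between -0.28 and 0.37.

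Other genes of sterol and lipid handling, 42 in number and 41 of them tested, were 18 higher and 6 lower in the mean of both states, where 20.1% of all genes tested were higher and 19.6% lower. When libraries with the same replicate number were summed over both states, 4 remained higher (Rnf145, Fasn, Clu and Gramd1b), against 5.72% of all genes, and 2 remained lower (Abcg4 and Ch25h), against 6.76%. The values below are of the mean of both states in the fit of all 8 libraries unless a state is named. Rnf145, a ubiquitin ligase of the sterol system, had the lowest adjusted p. It was at 61.7 and 63.2 CPM in unstimulated control KD, 116 and 124 CPM in unstimulated GSTM1 KD, and at 72.1 and 77.5 against 121 and 144 CPM after TNF-α, with close replicates and no overlap. It rose by 0.94 ± 0.10 at the basal level (edgeR adjusted p = 0.0160) and 0.80 ± 0.12 after TNF-α (adjusted p = 0.0180). Among uptake receptors, Lrp8 rose by 0.86 ± 0.18, Lrp1 by 0.49 ± 0.10 and Scarb1 by 0.21 ± 0.067 in the mean (adjusted p = 0.00987, 0.0100 and 0.0447), and Vldlr did not pass, at -0.39 ± 0.18 (adjusted p = 0.132). Mylip, the LXR target that marks lipoprotein receptors for degradation, fell by 0.88 ± 0.19 on the log2 scale (adjusted p = 0.0100). Of 5 genes of fatty acid synthesis, 3 were higher, Fasn by 0.88 ± 0.14, Acly by 0.56 ± 0.11 and Scd2 by 1.01 ± 0.31 (adjusted p = 0.00365, 0.00823 and 0.0379), and of these Fasn alone passed when libraries were summed by number (adjusted p = 0.0396, against 0.0615 for Acly and 0.135 for Scd2). Scd1 and Acaca did not pass, at 0.32 ± 0.17 and -0.088 ± 0.10. Clu, an apolipoprotein made by astrocytes, rose by 1.27 ± 0.18 (adjusted p = 0.00206), and Abcg4, an efflux transporter, was lower at -0.50 ± 0.072 (adjusted p = 0.00235). Ch25h, the cholesterol hydroxylase, was lower too but rested on 10 and 8 counts against 0 and 1 in unstimulated cells and 43 and 17 against 5 and 3 after TNF-α. Within states 3 were higher and 0 lower of 40 at the basal level, beside 4.6% and 5.62% of all genes, and 7 were higher and 3 lower of 41 after TNF-α, beside 7.26% and 8.92%. At the basal level 13 were higher and 4 lower at an unadjusted p below 0.05, beside 15.3% and 16.3% of all genes. None of the 41 genes passed for TNF-α in either genotype, with 7 in control KD and 6 in GSTM1 KD at an unadjusted p below 0.05, beside 12.5% and 10.9% of all genes.

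Markers of other cell types were summed in each library and ranged widely. Among microglia markers P2ry12 had at most 3 counts in any library, and the sum of the 6 markers was between 1.503 and 4.61 CPM over control KD libraries and between 0.901 and 2.12 CPM over GSTM1 KD libraries. The oligodendrocyte markers Mog and Mag were also at or under 3 counts, while the 9 lineage markers summed to between 217.7 and 321 CPM for control KD and between 218 and 239.9 CPM for GSTM1 KD. Endothelial markers summed to 15.9 to 24.1 against 7.29 to 14.5 CPM, with Cldn5 at or under 3 counts. Fibroblast and meningeal markers summed to 256 to 445 against 179.6 to 319.9 CPM. Nearly all of this sum came from Col1a1, Col1a2 and Pdgfrb, while Dcn had 16 to 46 counts a library and Lum 2 to 7. Neuron markers summed to 68.6 to 81.6 against 67.2 to 87.4 CPM, of which Tubb3 alone made up 66.0 to 86.5 CPM over the 8 libraries, with Snap25 at or under 3 counts and Rbfox3 at 1 to 9 counts. Choroid plexus markers summed to 0.215 to 0.782 against 1.75 to 3.15 CPM, and ependymal markers to 91.0 to 161 against 118 to 141 CPM. In the mean of both states Olig2, Mbp and Pdgfra were lower in GSTM1 KD, with log2 fold changes of -0.98 ± 0.082, -1.28 ± 0.43 and -0.63 ± 0.17 (edgeR adjusted p = 0.000366, 0.0486 and 0.0253). Of the endothelial markers Flt1 and Cdh5 were lower and Pecam1 did not pass, at 0.10 ± 0.42. Of the fibroblast and meningeal markers Col1a2 was lower and Pdgfrb higher, while Col1a1 and Dcn did not pass, at -0.48 ± 0.36 and 0.26 ± 0.35. The microglia marker Itgam was lower but rested on 61 and 8 counts against 3 and 0 in unstimulated cells and 35 and 6 against 8 and 1 after TNF-α, with overlapping groups, and Csf1r and Tmem119 did not pass. The choroid plexus marker Folr1 was higher on 3 to 55 counts a library. The ependymal marker Ccdc153 was higher on 0 to 35 counts a library, while Foxj1, which makes up most of the ependymal sum, did not pass, at 0.17 ± 0.14. The part of these cells in the cholesterol gene differences was not tested.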

How the data were processed

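RNA-seq libraries were made with a directional kit from cultured astrocytes. The authors aligned reads with STAR 2.5.4b to GRCm38 and counted genes with RSEM 1.3.0, per the labels, with the annotation not stated. The deposited expected counts, estimated by RSEM for genes and not whole numbers, were rounded. The deposited TPM values were made by the authors from those counts and are used for levels between genes, and the deposited effective length is another RSEM estimate. RSEM shares reads that fit several genes, and whether counting used strand is not stated, so reads of Hmgcs1, Idi1, Fdft1, Lss, Cyp51, Srebf1 and Scap may include reads of genes overlapping them on the other strand, and those of Fdps, Tm7sf2, Srebf1 and Nr1h3 reads of genes overlapping on the same strand. The libraries held 17349682 to 34434615 counts.

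CPM used TMM factors (0.9584 to 1.033). edgeR 4.0.16 (glmQLFit, glmQLFTest, filterByExpr) was fitted, with no replicate block, on the 4 libraries of a state for GSTM1 KD against control KD and on all 8 libraries for the mean of both states, the TNF-α responses and their interaction, with Benjamini-Hochberg adjustment over all genes at 0.05. The standard error is the log2 fold change divided by the root of F. DESeq2 1.42.0 and limma 3.58.1 (on log2(TPM + 1)) were alternatives, as were other scaling, filters, a replicate block and left-out libraries. The script was tested on simulated data. All members are accounted for, and by the rule fixed for named genes those past the threshold in any comparison are given with their values, with Srebf1, Srebf2, Insig1, Nr1h3, Abca1 and Apoe. Other members are given by fold change. Other pathway genes were to be given with values where past the threshold, and those shown are a choice from these, made after their values were seen, as were Abcg1's counts and the naming of Vldlr, Scd1 and Acaca. The members and lists were chosen with earlier results of these data known. Some genes of the list of other pathway genes are not reported here.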

Additional observations from a re-analysis of the deposited data

How the results depend on the processing

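Under another tool, scaling, filter or design, the count of cholesterol genes higher in GSTM1 KD changed in some fits and not in others, and the direction of the median did not. Shares in brackets are those of all genes called in the same direction in the same fit. At the basal level 3 genes were higher with edgeR on TMM-scaled counts (4.6%), 10 with DESeq2 (8.14%) and 16 without a filter (7.25%). With the replicate number as a block 19 were higher (15.7%), and 6 in a fit of all 8 libraries (8.19%). The count stayed at 3 with DESeq2 size factors (4.4%), an effective length offset (4.11%) or at least 10 counts in every library (4.83%). It was 4 with library size only (5.84%) and 2 with limma (3.36%). After TNF-α 3 were higher (7.26%), 7 with DESeq2 (9.34%), 5 with library size only (9.25%) and 13 without a filter (8.98%). With the replicate block 14 were higher (14.1%), and with limma on log2(TPM + 1) 1 was (5.17%). Without a filter 1 was lower (9.83%) and 1 with the replicate block (15.3%), against 0 (8.92%). With DESeq2 size factors 3 were higher (7.43%) and with the length offset 2 (6.05%). The count was 4 with the 10-count filter (7.94%) or all 8 libraries (10.2%). In the mean of both states 17 were higher (20.1%) and 1 lower (19.6%). When libraries were summed by replicate number, 3 were higher (5.72%) and 0 lower (6.76%). That fit was chosen after seeing the data, as were the fits without a number in both states. Without a filter 20 were higher (12.7%) and 2 lower (13.9%), and with the replicate block 22 higher (26.7%) and 3 lower (25.6%). With the other tools, scalings and filter 14 to 17 were higher (17.1% to 21.8%) and 1 lower (16% to 22.2%). Leaving out libraries gave 0 to 22 higher (0.00643% to 17.2%) and 0 to 1 lower (0% to 17%) at the basal level. It gave 0 to 20 higher after TNF-α (0% to 16.7%). For the mean it gave 0 to 23 higher (2.71% to 24.4%) and 0 to 2 lower (4.13% to 25.2%). Without the control KD libraries numbered 1 in both states, 9 were higher in the mean (14.1%). Where the count of higher genes changed, the share of all genes called higher moved in the same direction. The medians ran from 0.26 to 0.63, from 0.25 to 0.64 and from 0.23 to 0.63 in these fits. No gene passed for TNF-α in any of these fits, and the median ran from -0.20 to 0.26 in control KD, from -0.17 to 0.16 in GSTM1 KD and from -0.29 to 0.19 for the interaction. A fit that leaves out 1 of 2 libraries assumes that the lone sample varies like the others, and without GSTM1 KD replicate 1 or 2 at the basal level few genes of any kind passed. Labels do not say what a replicate number marks, and the deviations of same-numbered libraries correlated between groups at 0.165 to 0.575, so the block is given as an alternative only. The cause of these changes was not tested. Of 2801 gene-level alternatives, 2519 kept their side of the threshold, 140 passed newly, 142 no longer passed, and the sign differed in 215, of which 0 were for genes past the threshold.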
